A study of Homo sapiens with 6 samples.

Results

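The genes described here were 49 genes whose proteins find, signal and repair DNA double-strand breaks and interstrand crosslinks, mainly by homologous recombination and the Fanconi pathway. They were taken by gene name from the deposited table of 14959 genes, and all 49 were found in it with a mean of at least 1 FPKM (fragments per kilobase of transcript, scaled to the mapped fragments of the library). RNA-seq was done on UM-SCC1, an established cell line from a human squamous carcinoma of the head and neck, and on no other line. One group of 3 replicates received miR-204-5p mimics, short synthetic RNA duplexes that stand in for the native miRNA. The other group of 3 replicates received control mimics. Both groups were transfected in the same way, with Lipofectamine RNAiMax, and RNA was taken 48 h later. The miRNA was thus supplied from outside the cell.

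Double-strand breaks are bound by the MRE11-RAD50-NBN complex and by the Ku heterodimer, and these initiate different routes of repair. In homologous recombination the ends are resected, BRCA1 and its partners bring BRCA2 to the single strand, and an intact sister chromatid serves as template, which ties this route to S and G2 phase. Non-homologous end joining seals the ends directly through Ku, DNA-PKcs, XRCC4 and LIG4. The Fanconi proteins unhook crosslinks at stalled forks by loading ubiquitin on FANCD2 and FANCI. In squamous carcinoma these routes are known for their bearing on the response to cisplatin and radiation.

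The mature miRNA is shown because its seed, bases 2 to 8, sets which 3'UTR words pair with it. RefSeq places hsa-miR-204-5p on the minus strand at chr9:70810031-70810052 (GRCh38.p14), and the seed is in capitals. Below it are 30-base windows on the strand of the transcript from 6 repair genes, read from the GRCh38 genome with GENCODE 29 transcripts, with the matching bases in capitals. These genes carry such a word in the last exon of the transcript with the longest 3'UTR. They are 6 of the 11 repair genes with a word of at least 7 bases in that 3'UTR. Of the 6 genes, 5 were higher with the mimics. Of the 11, 6 were higher and 1, NBN, was lower. Among all genes with a word of at least 7 bases, 16.4% were higher and 27.0% lower. For ATR, RAD51B and RAD51C the word lies outside the transcript listed for the gene. The ATR window is at chr3:142450255-142450284 (minus), RAD51B at chr14:68595339-68595368 (plus), RAD51C at chr17:58735090-58735119 (plus), RAD52 at chr12:913338-913367 (minus), TP53BP1 at chr15:43406834-43406863 (minus) and RNF168 at chr3:196471789-196471818 (minus). An 8mer is a match to bases 2 to 8 followed by A, and a 7mer-m8 is the match to bases 2 to 8 alone.
hsa-miR-204-5p: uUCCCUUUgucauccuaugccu
ATR (8mer): ttgcaactgcaAAAGGGAAagttggctgtt
RAD51B (8mer): agaccagggccAAAGGGAAatcagtcaagg
RAD51C (7mer-m8): tttataatgttAAAGGGAggactttggagc
RAD52 (7mer-m8): gactctgtcacAAAGGGActttggaaaact
TP53BP1 (7mer-m8): ctcttagagctAAAGGGAgaacgaaaggac
RNF168 (7mer-m8): ggcctggtAAAGGGAgtgctttgtgatcta

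In all 6 libraries the markers of squamous epithelium were present, 8 of 8, with a summed level of 745 to 750 FPKM in the miR-204-5p mimics and 790 to 822 in the control mimics. Of the 8, CDH1, KRT6A and SFN were higher and 5 were lower; TP63, a squamous lineage factor and the one that fell most, was at 27.4 ± 3.19 against 55.9 ± 1.48 FPKM (SD, n = 3 each). The summed fibroblast markers, 4 of 6 in the table, were at 9.81 to 11.6 against 8.58 to 9.41 FPKM, nearly all from COL1A1. Of 5 immune markers, summed at 16.1 to 18.5 against 20.1 to 22.0 FPKM, CD14 and LYZ made up nearly the whole, and the 3 endothelial markers stayed below 1 FPKM in sum. The part of these markers in the results was not tested. Spearman correlations across genes were 0.9899 to 0.9908 within groups and 0.973 to 0.976 between groups. The table gives no counts. The smallest step in the low values stood for 0.0304 to 0.0381 FPKM on a transcript of 1 kb, and whether a step is a read or a fragment cannot be told. On that scale, using the length listed for each gene, the thinnest repair gene, ATRIP, held 35.3 to 54.1 steps in a library. PRKDC held 19927 to 28378.

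Most of the repair genes were higher in cells with the miR-204-5p mimics. Of 49, 26 were higher and 2 lower, while 21 did not pass (limma on log2(FPKM + 1), adjusted p under 0.05 over all genes). The background was 23.9% of all genes higher and 16.8% lower, against 53.1% and 4.08% of the repair genes. The same shares of all genes are the background for the counts by role and by list below. After the libraries were scaled to equal sums, equal medians or equal quantiles, 23, 23 and 22 of the 49 were higher. All 14959 genes then had 3080, 3106 and 3043 higher, rather than 3578. Without 1 library, 18 to 22 of the 49 were higher, and 2876 to 3138 of all genes. The median log2 fold change was 0.24 over the repair genes and 0.03 over all genes, and 41 of 49 values lay above 0, or 37 to 38 after the libraries were scaled to equal sums, equal medians or equal quantiles. In 31 genes all mimic libraries stood above all control libraries, and in 4, NBN, RAD54L, PALB2 and XRCC6, all stood below (30.9% and 22.7% of all genes). The changes were moderate in size. Among the genes that rose, the log2 fold change ran from 0.20 to 0.73 with a median of 0.37. Summed over the 49 genes, the level was 528 ± 11.4 against 472 ± 5.22 FPKM (SD, n = 3 each), or 309 ± 7.84 against 266 ± 0.633 FPKM without the 3 most abundant genes, XRCC6, PRKDC and XRCC5. The sum over all genes was also higher with the mimics, at 283454 to 291864 against 276822 to 280056 FPKM. The repair gene sums were not scaled to it. Fold changes on this scale understate those of low genes. The p-values rest on the spread between 3 libraries a group, moderated by limma over all genes. In bulk RNA, a change in the share of cells in one phase of the cycle and a change in RNA per cell cannot be told apart.

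**Figure D1:**
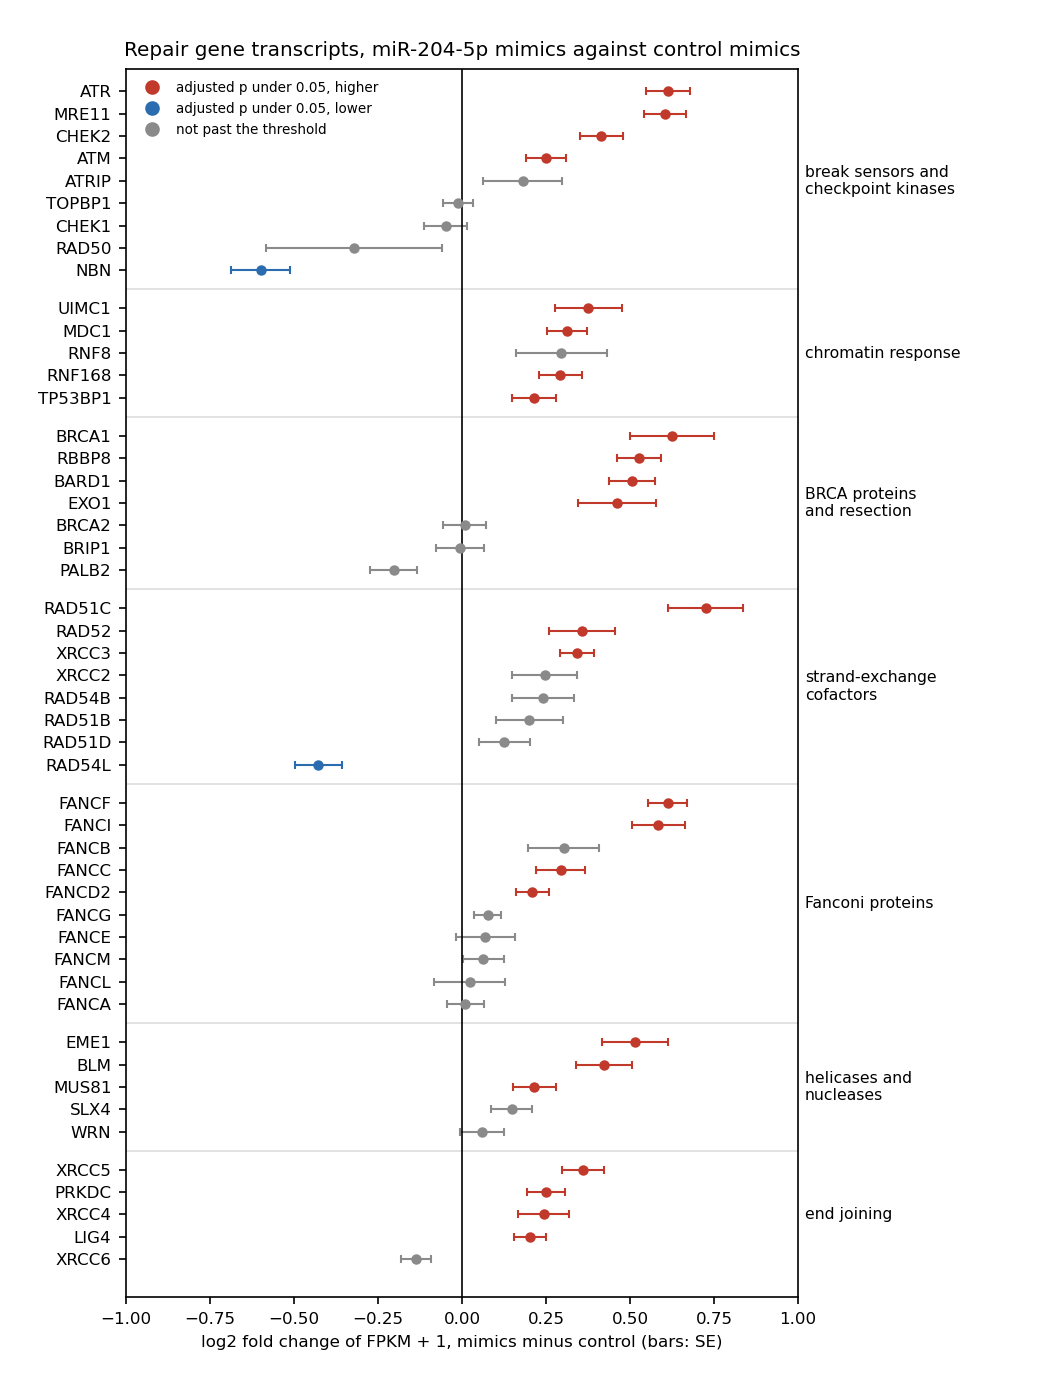
Log2 fold change of FPKM + 1 (miR-204-5p mimics minus control mimics, x axis) for each of the 49 repair genes, grouped by role; points are fitted values, bars are standard errors, and colour gives the call at an adjusted p of 0.05. Red points, 26 of them, lie right of 0 in every role, and the 2 blue points are NBN and RAD54L.

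**Figure D2:**
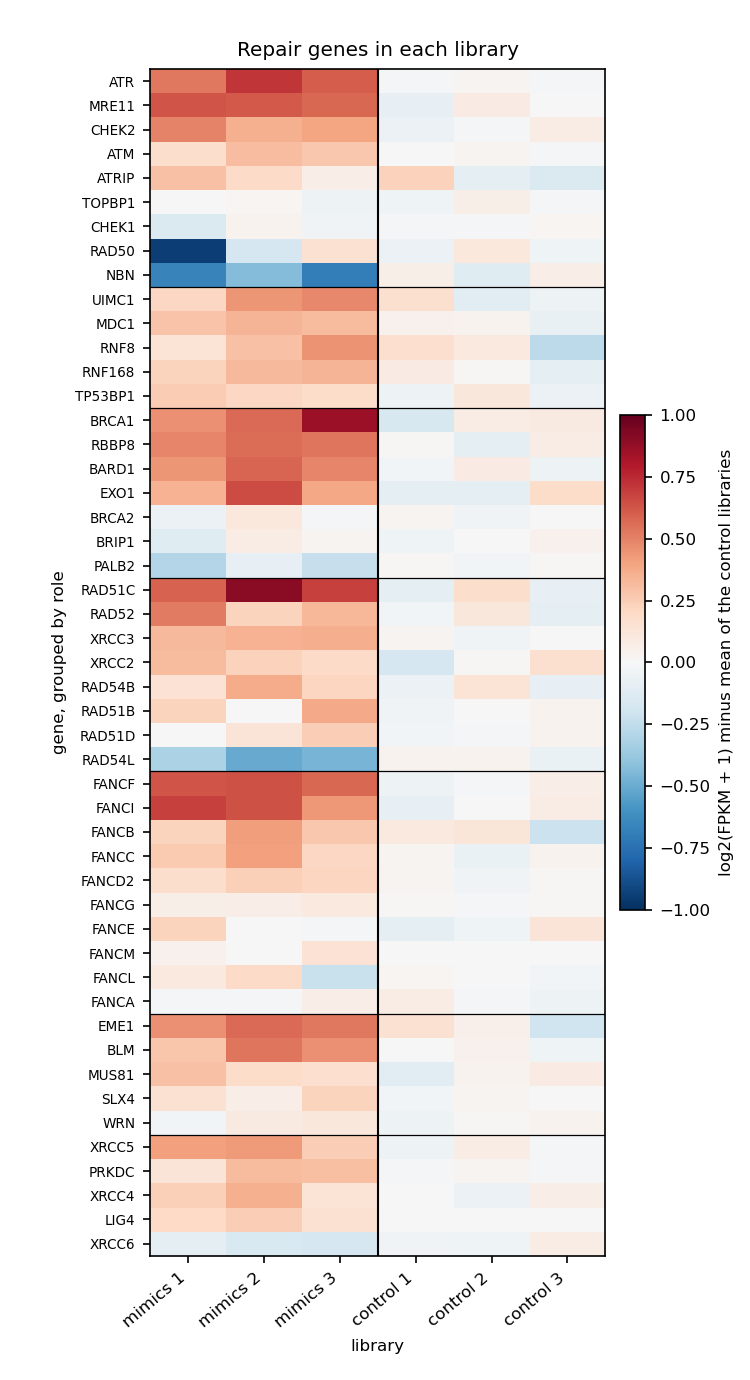
Each cell is log2(FPKM + 1) of a gene (y axis, grouped by role) in a library (x axis) minus the mean of the 3 control libraries. Most rows are red in all 3 mimic columns, NBN and RAD54L are blue in all 3, and RAD50 is dark blue in the first mimic library alone.

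Among the break sensors, NBN and MRE11, subunits of one complex, moved in opposite directions. NBN, the regulatory subunit of the MRE11 complex, was at 11.9, 14.1 and 11.6 FPKM in the miR-204-5p mimics and 20.3, 17.8 and 20.4 in the control mimics. No mimic library reached the lowest control library, and the gene fell by 0.60 on the log2 scale (SE 0.09, adjusted p = 0.00244). MRE11, the nuclease of that complex, was at 7.91, 7.80 and 7.55 FPKM against 4.42, 5.10 and 4.75. It rose by 62.9% in FPKM, with a log2 fold change of 0.61 (SE 0.06, adjusted p = 0.000635), and the groups were far apart. The ratio of NBN to MRE11 was therefore 1.62 ± 0.169 with the mimics and 4.12 ± 0.570 with the control mimics (SD, n = 3 each). RAD50, the ATPase that joins them, was at 3.95, 7.45 and 9.59 FPKM against 8.14, 9.21 and 8.23. Its mimic libraries spanned the control range on both sides, and the log2 fold change of -0.32 (SE 0.26, adjusted p = 0.373) did not pass; without mimic library 1 it was -0.01 (adjusted p = 0.964). The RAD50 transcript in the table is short, 923 bases and 11.1% of the longest coding one, and it shares exon bases with another gene on the same strand.

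The kinase ATR, which senses single-stranded DNA at stalled forks, was at 6.58, 7.64 and 7.01 FPKM with the mimics and 4.21, 4.36 and 4.23 with the control mimics. Its log2 fold change was 0.61 (SE 0.07, adjusted p = 0.000711), although the listed transcript is a 718-base model annotated as a target of nonsense-mediated decay, 8.70% of the longest coding one. ATM, the kinase activated by double-strand breaks, was at 4.65, 5.19 and 5.03 against 3.99, 4.10 and 3.94 FPKM (log2 fold change 0.25, SE 0.06, adjusted p = 0.0168). The ATM rise was smaller than that of ATR and missed the threshold without mimic library 2 or without control library 1 or 3 (adjusted p = 0.0502 to 0.0566). CHEK2, the checkpoint kinase downstream of ATM, was at 8.15, 7.31 and 7.51 against 5.22, 5.41 and 5.85 FPKM, a log2 fold change of 0.42 (SE 0.07, adjusted p = 0.00324). CHEK1, the corresponding kinase downstream of ATR, showed overlapping groups at 4.40, 5.10 and 4.82 against 4.93, 4.93 and 5.04 FPKM (log2 fold change -0.05, SE 0.06, adjusted p = 0.588). ATRIP, the partner of ATR, and TOPBP1, its activator, also overlapped, with log2 fold changes of 0.18 (SE 0.12) and -0.01 (SE 0.05). In this role 4 of 9 genes rose and 1 fell, beside 23.9% of all genes higher and 16.8% lower.

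**Figure D3:**
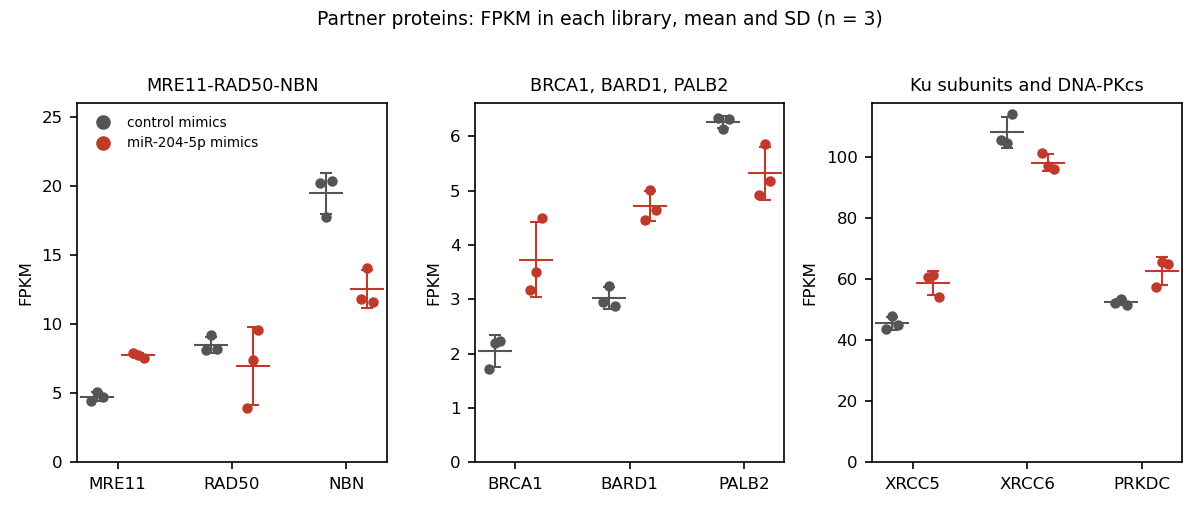
FPKM (y axis, from 0) in each library of 3 sets of partner genes (x axis), control mimics in grey and miR-204-5p mimics in red; horizontal marks are means and bars SD of 3 libraries. NBN goes from 19.5 to 12.5 FPKM while MRE11 goes from 4.76 to 7.75, and XRCC5 goes from 45.6 to 58.8 while XRCC6 is at 108 and 98.2.

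All genes of the chromatin response, which spreads ubiquitin marks around a break, had positive log2 fold changes, and 4 of 5 passed. The scaffold MDC1, which binds phosphorylated H2AX, was at 5.49, 5.75 and 5.64 FPKM against 4.48, 4.47 and 4.06 in the control mimics. For RNF168, the ubiquitin ligase that marks H2A, the values were 10.1, 10.95 and 11.1 against 9.14, 8.61 and 7.96 FPKM. Their log2 fold changes were 0.31 (SE 0.06, adjusted p = 0.00673) and 0.29 (SE 0.06, adjusted p = 0.0120), and both kept their call without any single library. UIMC1 (RAP80), which binds the ubiquitin chains for the BRCA1-A complex, was at 11.8, 14.0 and 14.4 against 11.3, 9.26 and 9.64 FPKM. It rose by 0.38 (SE 0.10, adjusted p = 0.0234) on the log2 scale, with the first mimic library close to the first control library. TP53BP1, which shields ends from resection, was at 8.13, 7.86 and 7.68 against 6.39, 7.28 and 6.34 FPKM, with a log2 fold change of 0.21 (SE 0.07, adjusted p = 0.0389). These calls were thin. UIMC1 missed the threshold without mimic library 2 or 3 or control library 2 or 3 (adjusted p = 0.0699 to 0.0771), and TP53BP1 missed it without any single library but control 2 (adjusted p = 0.0666 to 0.110) and after each scaling. RNF8, the ligase that acts before RNF168, overlapped between groups (log2 fold change 0.30, SE 0.14, adjusted p = 0.128).

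Among the BRCA proteins and resection factors, 4 of 7 genes rose and none passed as lower. BRCA1, the ubiquitin ligase subunit that promotes resection, was at 3.18, 3.50 and 4.51 FPKM against 1.72, 2.20 and 2.24. Every mimic library exceeded every control library, on a listed transcript that is 50.5% of the longest coding one. The BRCA1 mean rose by 81.7% (log2 fold change 0.63, SE 0.12, adjusted p = 0.00823). BARD1, its obligate partner, was at 4.47, 5.02 and 4.65 against 2.95, 3.25 and 2.88 FPKM, a log2 fold change of 0.51 (SE 0.07, adjusted p = 0.00179). The ratio of BRCA1 to BARD1 was 0.792 ± 0.153 with the mimics and 0.679 ± 0.0975 with the control mimics (SD, n = 3 each), so the groups' ratios overlapped. RBBP8 (CtIP), which starts resection with MRE11, was at 5.11, 5.41 and 5.31 against 3.401, 3.08 and 3.59 FPKM. The long-range nuclease EXO1 was at 4.60, 5.94 and 4.76 against 3.14, 3.14 and 3.99 FPKM. Both rose, by 0.53 (SE 0.07, adjusted p = 0.00131) and 0.46 (SE 0.12, adjusted p = 0.0196), on listed transcripts of 564 and 583 bases that are 17.1% and 16.8% of the longest coding ones. The EXO1 call was lost without mimic library 2 or control library 1 or 2 (adjusted p = 0.0510 to 0.0637).

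BRCA2, BRIP1 and PALB2 did not pass. BRCA2, which acts on the resected single strand, was at 1.27, 1.54 and 1.33 FPKM against 1.41, 1.31 and 1.37, and the log2 fold change was 0.01 (SE 0.06, adjusted p = 0.934) and turned negative after each scaling. BRIP1, a helicase partner of BRCA1, had a log2 fold change of -0.01 (SE 0.07). PALB2, the bridge between BRCA1 and BRCA2, was lower in all mimic libraries, at 4.92, 5.87 and 5.18 against 6.34, 6.13 and 6.32 FPKM, and is named here because its values were seen to lie near the threshold. Its log2 fold change of -0.20 (SE 0.07, adjusted p = 0.0580) passed without mimic library 2 (adjusted p = 0.0261), with genes of at least 1 FPKM alone and after each scaling. The difference between BRCA1 and BRCA2 in response was not tested.

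Genes of the strand-exchange cofactors, which help the resected strand pair with its template, were led by the largest rise of the 49. RAD51C, a strand-exchange cofactor, was at 4.12, 5.36 and 4.47 FPKM with the mimics and 2.19, 2.84 and 2.22 with the control mimics. The mean rose by 92.4%, with a log2 fold change of 0.73 (SE 0.11, adjusted p = 0.00307), on a listed transcript at chr17:58692573-58709911 that is 28.0% of the longest coding one. XRCC3, its partner, was at 6.57, 6.69 and 6.78 against 5.18, 4.91 and 5.08 FPKM. The groups were clearly apart, with a log2 fold change of 0.34 (SE 0.05, adjusted p = 0.00254). RAD52, which anneals complementary single strands, was at 4.16, 3.19 and 3.52 against 2.53, 2.89 and 2.38 FPKM (log2 fold change 0.36, SE 0.10, adjusted p = 0.0275). Its call was lost without mimic library 1 or 3 or control library 1 or 3 (adjusted p = 0.0613 to 0.0828) and after quantile normalization.

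RAD54L, a motor protein of strand invasion, went the other way. It was at 5.93, 5.09 and 5.23 FPKM with the mimics and 7.83, 7.83 and 7.22 with the control mimics, and fell by 0.43 on the log2 scale (SE 0.07, adjusted p = 0.00384). Its listed transcript has 718 bases, 23.1% of the longest coding one, and shares exon bases with a gene on the opposite strand. Of the remaining cofactors, RAD51B was at 1.60, 1.22 and 1.89 against 1.16, 1.22 and 1.28 FPKM and passed only without mimic library 2 (adjusted p = 0.0304). RAD51D was at 1.44, 1.66 and 1.90 against 1.39, 1.42 and 1.504 FPKM and overlapped between groups (log2 fold change 0.13, SE 0.08, adjusted p = 0.235). XRCC2 and RAD54B had log2 fold changes of 0.25 (SE 0.10) and 0.24 (SE 0.09) with no overlap between groups and adjusted p of 0.0848 and 0.0785; they passed without control library 3 (adjusted p = 0.0378) and control library 2 (adjusted p = 0.0466), respectively. RAD54B shares exon bases with FSBP on the same strand.

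In the Fanconi pathway the substrates rose and most of the core complex did not pass. FANCI was at 19.2, 18.6 and 15.99 FPKM against 10.9, 11.6 and 12.2, and FANCD2, its partner in the ubiquitinated clamp, was at 8.24, 8.64 and 8.51 against 7.34, 6.98 and 7.24. The rise was 0.58 for FANCI (SE 0.08, adjusted p = 0.00167) and 0.21 for FANCD2 (SE 0.05, adjusted p = 0.0149) on the log2 scale. The ratio of FANCI to FANCD2 was 2.12 ± 0.225 with the mimics and 1.61 ± 0.112 with the control mimics (SD, n = 3 each), without overlap. Of the core complex, which carries the ligase FANCL, FANCF was at 7.21, 7.25 and 6.91 against 4.12, 4.27 and 4.56 FPKM, with the lowest adjusted p of the 49 genes (log2 fold change 0.61, SE 0.06, adjusted p = 0.000446). FANCC, which sits with FANCF in that complex, was at 4.67, 5.27 and 4.47 against 3.83, 3.52 and 3.84 FPKM (log2 fold change 0.29, SE 0.07, adjusted p = 0.0197). The calls of FANCD2 and FANCC were both lost without mimic library 2 or control library 2 (adjusted p = 0.0505 to 0.0514 and 0.0538 to 0.0640), and that of FANCC also after quantile normalization.

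The other 6 Fanconi genes, FANCA, FANCB, FANCE, FANCG, FANCL and FANCM, had log2 fold changes from 0.01 to 0.30 and none passed (adjusted p = 0.0620 to 0.910). Among them FANCB was the lowest expressed of the 49 genes, at 1.14, 1.46 and 1.22 against 0.969, 0.997 and 0.587 FPKM, with no overlap between groups. FANCA, FANCL, FANCE and FANCM lay near 0, and the sign of FANCA, FANCL and FANCM was negative after at least 1 scaling.

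The helicases and nucleases that resolve joint molecules were higher in 3 of 5 genes. BLM, the helicase of the dissolvasome, was at 2.72, 3.46 and 3.22 FPKM against 2.08, 2.16 and 1.98 (log2 fold change 0.42, SE 0.08, adjusted p = 0.00757). EME1, the regulatory subunit of the MUS81 nuclease, was at 7.15, 7.77 and 7.54 against 5.60, 5.13 and 4.15 FPKM, a log2 fold change of 0.52 (SE 0.10, adjusted p = 0.00690). MUS81 itself was at 15.1, 14.0 and 13.8 against 11.2, 12.5 and 12.9 FPKM (log2 fold change 0.22, SE 0.07, adjusted p = 0.0382). The MUS81 groups lay close together, and its call was lost without any single library but control 3 (adjusted p = 0.0599 to 0.107) and after scaling to equal sums or medians. SLX4, a scaffold for nucleases, and WRN, a RecQ helicase, had log2 fold changes of 0.15 (SE 0.06) and 0.06 (SE 0.06, negative after quantile normalization) and did not pass.

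End joining was higher in 4 of 5 genes and held the most abundant ones. PRKDC, which encodes DNA-PKcs, was at 57.5, 65.6 and 64.9 FPKM against 52.1, 53.6 and 51.7 (log2 fold change 0.25, SE 0.06, adjusted p = 0.0133). XRCC5 (Ku80) was at 60.7, 61.5 and 54.2 against 43.8, 48.0 and 44.9 FPKM, with a log2 fold change of 0.36 (SE 0.06, adjusted p = 0.00442). Its partner XRCC6 (Ku70), named because its values were seen to lie near the threshold, was lower in every mimic library. XRCC6 was at 102, 97.0 and 96.2 against 106, 105 and 114 FPKM, with a log2 fold change of -0.14 (SE 0.05, adjusted p = 0.0536). That difference passed with genes of at least 1 FPKM alone and after each scaling (adjusted p = 0.0119 to 0.0472). The ratio of XRCC5 to XRCC6 was 0.599 ± 0.0353 with the mimics and 0.422 ± 0.0330 with the control mimics (SD, n = 3 each). The values did not overlap, so the transcripts of the Ku subunits changed unequally.

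The ligase pair of this route moved together and by little. LIG4 was at 9.35, 9.69 and 9.02 FPKM against 8.01, 7.95 and 8.02, and XRCC4, its stabilizing partner, was at 5.97, 6.54 and 5.47 against 4.87, 4.65 and 5.18. The log2 fold changes were 0.20 (SE 0.05, adjusted p = 0.0154) and 0.24 (SE 0.08, adjusted p = 0.0418). The LIG4 call was lost without mimic library 2 (adjusted p = 0.0514), and that of XRCC4 without any single library but mimics 3 (adjusted p = 0.0560 to 0.119) and after each scaling.

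More repair genes were higher than lower both with and without a seed match. A word of at least 7 bases was present in the longest annotated 3'UTR of 11 of 49 repair genes, and of these 1 was lower and 6 were higher. The 8mers were in ATR and RAD51B, the 7mer-m8 words in BRCA2, RAD51C, RAD51D, RAD52, NBN, TP53BP1 and RNF168, and the 7mer-A1 words, which match bases 2 to 7 followed by A, in ATM and CHEK1. Among the 38 genes with none, 1 was lower and 20 were higher. Over all 14664 genes with a 3'UTR, those with such a word were lower in 27.0% and higher in 16.4%, against 13.5% and 27.2% without one. NBN, the one gene of the 11 that fell, carries its 7mer-m8 at 89934775 to 89934781 on chromosome 8 (GRCh38, minus strand), in the last of 16 exons, beside 3 words of 6 bases in the same 3'UTR of 2246 bases. RAD54L, the other gene that fell, has no word of 6 or more bases. In 7 of the 11 genes the word lies in the 3'UTR of the listed transcript, and in RAD51B, RAD51C, ATM and ATR it does not. Of those 7 genes, 3 were higher and 1 was lower. A match is a sequence word and not a measured binding site.

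**Figure D4:**
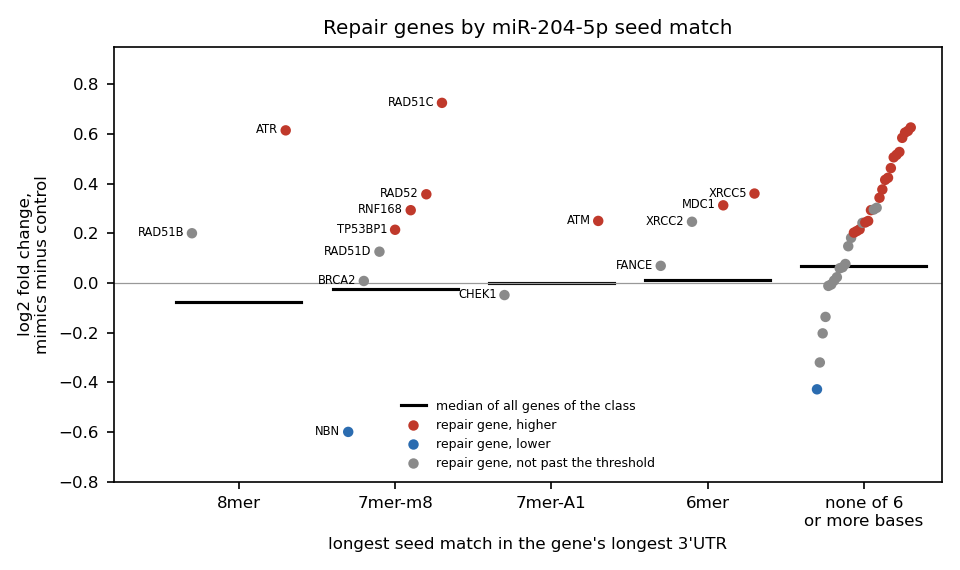
Log2 fold change (y axis, miR-204-5p mimics minus control mimics) of the 49 repair genes by the longest seed match in the longest 3'UTR (x axis), coloured by call; black lines are the medians of all genes of each class. ATR and RAD51C, with words of 8 and 7 bases, lie at 0.61 and 0.73, and NBN lies at -0.60.

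Other genes of break and crosslink repair, 65 in the table, were higher in 23 and lower in 8, with a median log2 fold change of 0.12. The count of 8 fell to 5 without mimic library 1 or without control library 1, 2 or 3. The largest rises were in subunits of RPA, which coats resected ends. RPA3 was at 39.2 ± 2.17 against 20.7 ± 1.53 FPKM and RPA2 at 23.8 ± 1.99 against 13.3 ± 0.954 (SD, n = 3 each), with log2 fold changes of 0.89 (SE 0.07, adjusted p = 0.000195) and 0.79 (SE 0.08, adjusted p = 0.000504). UBE2T, the conjugating enzyme that serves FANCL, SFR1, a recombination cofactor, RMI2, a partner of BLM, and ABRAXAS1, which binds UIMC1 in the BRCA1-A complex, rose by 0.64 to 0.78.

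Replication genes were mostly higher as well. Of 37 S-phase genes, 23 were higher and 1 was lower, with a median of 0.33, and the 1 lower call was lost when any library was left out. TYMS, which makes thymidylate, was at 32.7 ± 1.48 against 16.1 ± 1.55 FPKM, and PRIM2, a primase subunit, at 8.25 ± 0.246 against 3.801 ± 0.304 (SD, n = 3 each). POLE2, MCM3, CDC45 and POLA2 of the replication machinery rose by 0.56 to 0.72 on the log2 scale. Of 39 genes of mismatch, excision and single-strand break repair, 16 were higher and 4 lower, with a median of 0.16. UNG, which removes uracil from DNA, fell from 29.6 ± 1.44 to 13.2 ± 0.175 FPKM (SD, n = 3 each). PMS1, DDB2 and MGMT rose by 0.69 to 0.71, and RAD23B fell by 0.51.

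Among E2F, RB and DREAM regulators and genes of mitosis, calls went both ways. Of the E2F, RB and DREAM list 15.8% were higher and 21.1% lower, and of the G2 and mitosis list 18.8% and 25%. All genes stood at 23.9% and 16.8%. Of 19 E2F, RB and DREAM regulators, 3 were higher and 4 lower, with a median of -0.09, and scaling to equal sums, medians or quantiles gave 1 higher and 7 lower. The 3 higher calls fell to 1 without mimic library 2 or 3 or control library 2 or 3. E2F5 was at 11.2 ± 0.378 against 7.05 ± 0.462 FPKM, and LIN54, a DREAM subunit, at 2.45 ± 0.365 against 3.95 ± 0.247 (SD, n = 3 each). Of 16 genes of G2 and mitosis, 3 were higher and 4 lower, with a median of -0.03, and the 4 fell to 2 without mimic library 1. CCNA2 fell from 35.9 ± 1.25 to 23.2 ± 0.947 FPKM and TOP2A from 125 ± 5.14 to 85.0 ± 2.61 (SD, n = 3 each). One of the words TTTGGCGC, TTTCCCGC, TTTGCCGC or TTTCGCGC, which E2F factors are known to bind, stood on either strand in 7 of 43 repair gene promoters (250 bases before to 50 after the start, RefSeq, GRCh38.p14), or 16.3%, against 4.99% of the promoters of genes of the table and 3.33% of all promoters of that length. Of those 7 genes 3 were higher, and of the 36 others 20 were higher, beside 27.3% of all genes of the table with such a word and 24.2% of those without. Each promoter is that of 1 RefSeq start, which need not be the start of the listed transcript. For BRCA1, on the minus strand, the bases read were chr17:43170278-43170577, and the listed transcript starts at 43125370.

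**Figure D5:**
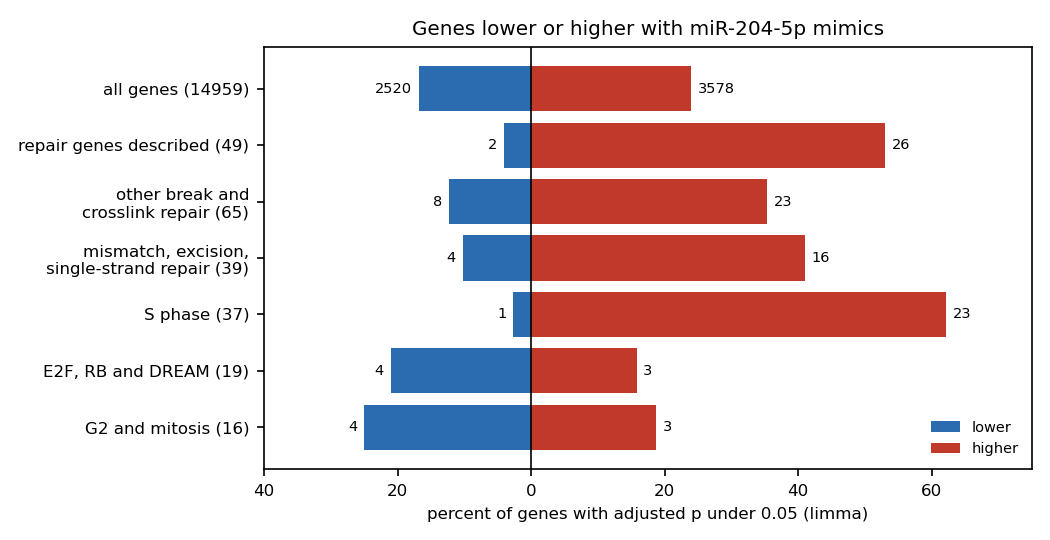
Percent of genes with an adjusted p under 0.05 that were lower (blue, to the left) or higher (red, to the right) with miR-204-5p mimics, by gene list (y axis, number of genes in brackets); numbers at the bars are counts. Repair and S-phase genes lie mostly to the right, 26 of 49 and 23 of 37, and the E2F and mitosis lists, with 4 lower and 3 higher each, do not.

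The listed transcripts limit how the levels can be read. The table names 1 transcript and its length for each gene, and whether the levels were scaled by that length alone was not tested. For 12 of the 49 genes the listed transcript is under 50% of the longest coding transcript in GENCODE 29. These are PALB2, RAD50, RAD51C, RAD54L, RBBP8, ATM, ATR, ATRIP, CHEK2, FANCM, EXO1 and MUS81. Of these 12, 7 were higher and 1 lower, and of the other 37, 19 were higher and 1 lower, with medians of 0.23 and 0.24. For RAD51B, ATR, FANCB and FANCG the listed transcript is annotated as a target of nonsense-mediated decay, and 1 of these 4 was higher. The listed transcript of FANCF has 4269 bases, against 2952 in GENCODE 29, and that of FANCC has 4585 against 4592. FANCF and FANCC were both higher. In 7 genes, RAD54L, MRE11, ATM, FANCA, FANCI, FANCL and EME1, exons overlap a gene on the opposite strand, and whether the counting used strand is not given in the sources used here.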

How the data were processed

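The authors transfected UM-SCC1 cells with miRIDIAN mimics, extracted RNA with the miRNeasy kit, made TruSeq libraries and sequenced them on HiSeq X instruments. They deposited FPKM per gene and library; the submitters' processing notes name HISAT2, StringTie and hg38 without versions, and the annotation version is not given in the sources used here. The table also holds the authors' own log ratio, p-value and FDR columns from edgeR, which were not used.

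Since FPKM is no count, the 14959 genes were compared as log2(FPKM + 1) with limma 3.58.1 (lmFit, eBayes with trend, R 4.3.3), two-sided, with the Benjamini-Hochberg adjustment at 0.05, no filter and no further scaling. The fit was also run on simulated data with independent noise and far fewer changed genes than were called here. That run does not test these calls. Transcripts, 3'UTRs and exon overlaps came from GENCODE 29 and promoters and the miRNA from RefSeq (GRCh38.p14), with 43 of 49 promoters matched. Steps in the low values were read from genes with 1 transcript: 45.5% to 60.0% of 133 to 185 values were whole within 0.05, against 3.39% to 6.67% at a wrong step. Tables were made with pandas 2.3.3 and numpy 2.4.6 under Python 3.11.15, and figures with matplotlib 3.10.9.

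Values per library are given for each repair gene past the threshold with a mean of at least 1 FPKM and for those with a seed match of at least 7 bases. Others are given by range, apart from RAD50 and FANCB, which varied widely within a group or were lowest, and PALB2 and XRCC6, chosen after their values were seen. Of the other lists, at most 6 genes each with an absolute log2 fold change of at least 0.5 are named, the largest first, and some items are not reported here. The repair genes, the lists and the tests were chosen with earlier results of these data known. The alternatives were a pseudocount of 0.1, a mean of at least 1 FPKM, the replicate number as a block, 3 scalings, each library left out and other choices of 3'UTR.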

Additional observations from a re-analysis of the deposited data

How the results depend on the processing

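Each of the 49 genes was recomputed under 12 alternatives. Of the 26 higher calls 16 stayed past the threshold in all 12, as did both lower calls, NBN and RAD54L. The 10 that were lost at least once were ATM, TP53BP1, UIMC1, EXO1, RAD52, FANCD2, FANCC, MUS81, LIG4 and XRCC4, and 5 genes were gained at least once. No called gene changed sign. The count of lower repair genes was 4 rather than 2 with genes of at least 1 FPKM alone, with equal sums, with equal medians and with quantile normalization, which added PALB2 and XRCC6. Over all 14959 genes, the lower count moved from 2520 to 2885, 2948 and 3026 with equal sums, equal medians and quantiles. Among the 11504 genes of at least 1 FPKM, 2433 were lower. The median log2 fold change of the repair genes was 0.30 with a pseudocount of 0.1, 0.21 with equal sums, 0.21 with equal medians and 0.19 with quantile normalization, against 0.24. The replicate block gave 18 higher and 2 lower repair genes, 5 lower genes of other break repair and 1 higher E2F, RB or DREAM regulator. Over all 14959 genes the block gave 2999 higher and 2097 lower, against 3578 and 2520 without it. Deviations of same-numbered libraries correlated at -0.040, -0.021 and -0.108, so no shared deviation was seen between them. Whether same-numbered libraries were handled together cannot be told from these values. Scaling to equal sums, equal medians and quantiles each gave 7 lower and 1 higher E2F, RB or DREAM regulator, and quantiles gave 2 lower S-phase genes. Without 1 library, lower genes of other break repair ranged from 5 to 6, lower S-phase genes were at 0, higher E2F, RB or DREAM regulators ranged from 1 to 3, and lower G2 and mitosis genes ranged from 2 to 4. Seed matches lay in 7 rather than 11 repair genes with the 3'UTR of the listed transcript.

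Signs turned in genes that did not pass. With equal sums, equal medians and quantiles FANCA was at -0.030, -0.032 and -0.011 and BRCA2 at -0.017, -0.018 and -0.066. FANCL was at -0.017 and -0.018 with equal sums and medians. With quantiles WRN was at -0.0038 and FANCM at -0.024. Without 1 library the range was -0.020 to 0.046 for FANCA, -0.061 to 0.144 for FANCL, -0.041 to 0.042 for BRCA2, -0.0089 to 0.133 for FANCE, -0.046 to 0.050 for BRIP1 and -0.032 to 0.018 for TOPBP1. The cause of these changes was not tested. ATRIP, the thinnest gene, rests on as few as 35.3 steps of the table at its listed length.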
